A study of Homo sapiens with 12 samples.

Results

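SR proteins and hnRNPs are the 2 main families of RNA-binding proteins that decide which splice sites are used in a pre-mRNA. SR genes (SRSF symbols) code for proteins with an arginine and serine rich domain that bind exonic enhancers and recruit the spliceosome, and hnRNP genes (HNRNP symbols) code for abundant nuclear proteins that coat nascent RNA and often repress the exons beside which they bind. Many transcripts of both families are themselves regulated by alternative exons that lead to nonsense-mediated decay, so that their mRNA level is under feedback. The genes described here were chosen by symbol alone, as SRSF followed by digits or as HNRNP, without readthrough names that carry a hyphen and without pseudogene names that end in P and digits. This gave 37 of the 28008 genes of each count table, 12 SR and 25 hnRNP genes.

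The levels were measured by RNA-seq in QGP-1 and BON-1, established human pancreatic neuroendocrine tumor (pNET) cell lines that both carry tet-MUC1shRNA, a doxycycline-inducible hairpin against MUC1. Cells of each line received the DMSO vehicle at 0.1% or doxycycline (DOX) at 500 ng/mL for 7 days, which gave 4 groups of 3 libraries and 12 libraries in all. The comparison asks how silencing of MUC1, which codes for a transmembrane mucin with an oncogenic C-terminal subunit, changes the transcriptome. One hairpin is represented and libraries of control hairpin cells with DOX were not analysed here, so an effect of DOX itself and one of the hairpin cannot be told apart, and whether each line is a pool or a clone is not given in the sources used here.

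MUC1 fell in both lines, which checks the labels. In QGP-1 cells it stood at 7.19, 5.81 and 5.65 CPM (read counts scaled to library size) with vehicle and at 0.705, 1.04 and 0.744 with DOX, a log2 fold change of -2.91 ± 0.23 (SE, edgeR adjusted p = 8.24e-07). In BON-1 cells it stood at 20.6, 20.7 and 15.6 CPM with vehicle and at 1.48, 2.65 and 3.97 with DOX, a log2 fold change of -2.79 ± 0.22 (SE, edgeR adjusted p = 6.51e-11). Total counts per library ran from 38224144 to 50525926 in QGP-1 and from 15981954 to 28484324 in BON-1 cells, so the BON-1 values rest on fewer reads. Of 12 neuroendocrine markers, 11 were expressed in each line, with NEUROD1 at 0 in QGP-1 and ISL1 at 0 in BON-1, and the leukocyte, endothelial and fibroblast markers summed to at most 0.449, 1.48 and 4.79 CPM in any library. The noncoding RNAs RN7SK, RN7SL1 and RN7SL2 took 5.37 to 6.38% of counts in QGP-1 vehicle and 3.30 to 4.53% in QGP-1 DOX libraries, against 1.35 to 2.39% and 1.55 to 3.77% in BON-1. CPM values are scaled by TMM within a line, and levels of the 2 lines were thus normalized separately.

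The start regions of the members give a view of the genes behind these values. Promoter windows from RefSeq on GRCh38.p14, each from 250 bases before to 50 bases after an annotated start, were found for 34 of the 37 members. They were searched on both strands for 6 short motifs, counted over windows because a gene can have several. CCAAT was held by 18 of 30 windows of the tested hnRNP genes and by 3 of 14 of the SR genes. It was in 34.6% of all 35116 windows and in 34.4% of the 16971 windows of genes tested in either line. The other motifs follow with both shares, of which that of tested genes is the like background. CACGTG, an E-box, was held by 7 hnRNP windows and no SR window (7.26% of all windows, 8.93% of those of tested genes). TGACGT was in 2 hnRNP and 3 SR windows (7.98% of all, 10% of tested) and TTTCCCGC in 2 and 1 (1.63% and 2.26%). CCGGAAGT was in 1 and 2 (4.14% and 6.41%), and CTCGCGAG in 3 and 2 (1.02% and 1.61%). These matches are a description of the letters in the window. The 250 bases before the outermost start are shown for the SR gene and the hnRNP gene with the largest falls in BON-1 cells, for a gene that moved in opposite directions in the 2 lines and for a gene that fell in both. Capitals mark CACGTG and CCAAT (or ATTGG, its reverse complement), and the sequences read 5′ to 3′ on the gene's strand.

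SRSF1 (chr17:58007247-58007496, strand -): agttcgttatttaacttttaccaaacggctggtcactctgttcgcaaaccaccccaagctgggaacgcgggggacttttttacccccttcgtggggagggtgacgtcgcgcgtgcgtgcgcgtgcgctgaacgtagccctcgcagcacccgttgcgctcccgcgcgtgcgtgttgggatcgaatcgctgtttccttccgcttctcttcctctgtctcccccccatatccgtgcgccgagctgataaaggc

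HNRNPUL1 (chr19:41262307-41262556, strand +): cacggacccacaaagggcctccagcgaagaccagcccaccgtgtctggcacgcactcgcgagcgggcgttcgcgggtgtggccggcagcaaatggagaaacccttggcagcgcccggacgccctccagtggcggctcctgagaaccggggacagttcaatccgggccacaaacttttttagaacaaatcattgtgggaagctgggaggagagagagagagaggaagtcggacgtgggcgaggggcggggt

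HNRNPH3 (chr10:68331443-68331692, strand +): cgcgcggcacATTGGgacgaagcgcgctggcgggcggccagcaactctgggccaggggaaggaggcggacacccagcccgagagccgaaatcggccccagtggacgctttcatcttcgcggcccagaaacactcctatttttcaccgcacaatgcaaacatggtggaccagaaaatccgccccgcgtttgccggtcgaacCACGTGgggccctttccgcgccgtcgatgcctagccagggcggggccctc

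HNRNPL (chr19:38852348-38852597, strand -): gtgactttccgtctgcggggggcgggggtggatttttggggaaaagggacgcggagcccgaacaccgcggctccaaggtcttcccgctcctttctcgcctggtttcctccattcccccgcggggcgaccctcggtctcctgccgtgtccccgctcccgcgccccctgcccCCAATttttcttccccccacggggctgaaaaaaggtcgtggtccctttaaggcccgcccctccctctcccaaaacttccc

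The HNRNPH3 stretch holds 1 CACGTG and 1 CCAAT in reverse complement, the HNRNPL stretch 1 CCAAT, and the stretches of SRSF1 and HNRNPUL1 neither. HNRNPUL1 has both motifs in its windows all the same, CACGTG after the outermost start and CCAAT at another start.

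Of the 12 SR genes, all were expressed above the count filter in both lines, and of the 25 hnRNP genes 20 were. Per length, as deposited TPM, SRSF3, the smallest SR protein and an mRNA export adaptor, held the largest share of its family's summed TPM with vehicle, 19.8% ± 1.22 (SD, n = 3) in QGP-1 and 16.8% ± 0.682 in BON-1 cells. SRSF9 followed in QGP-1 with 18.9% ± 1.21, within the spread of SRSF3, and SRSF5 in BON-1 with 13.8% ± 0.473. SRSF5 took 7.15% ± 0.345 in QGP-1, so the order within the family differed between the lines. SRSF12 was lowest in both, at 0.471% in QGP-1 and 0.0558% in BON-1.

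Among hnRNP genes HNRNPA1, whose protein binds exonic and intronic silencers, held the largest share per length, 17.1% ± 0.452 in QGP-1 and 16.8% ± 0.565 in BON-1 vehicle cells. HNRNPC, which binds uridine tracts on nascent RNA, took 10.2% ± 0.834 in QGP-1 and 15.9% ± 0.635 in BON-1, the latter within the spread of HNRNPA1. HNRNPL, a reader of CA repeats, took 13.6% ± 0.891 and 10.0% ± 0.383. The largest move of a share with DOX, in percentage points, was that of HNRNPAB in QGP-1 cells, from 7.35% ± 0.520 to 9.93% ± 0.203.

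**Figure D1:**
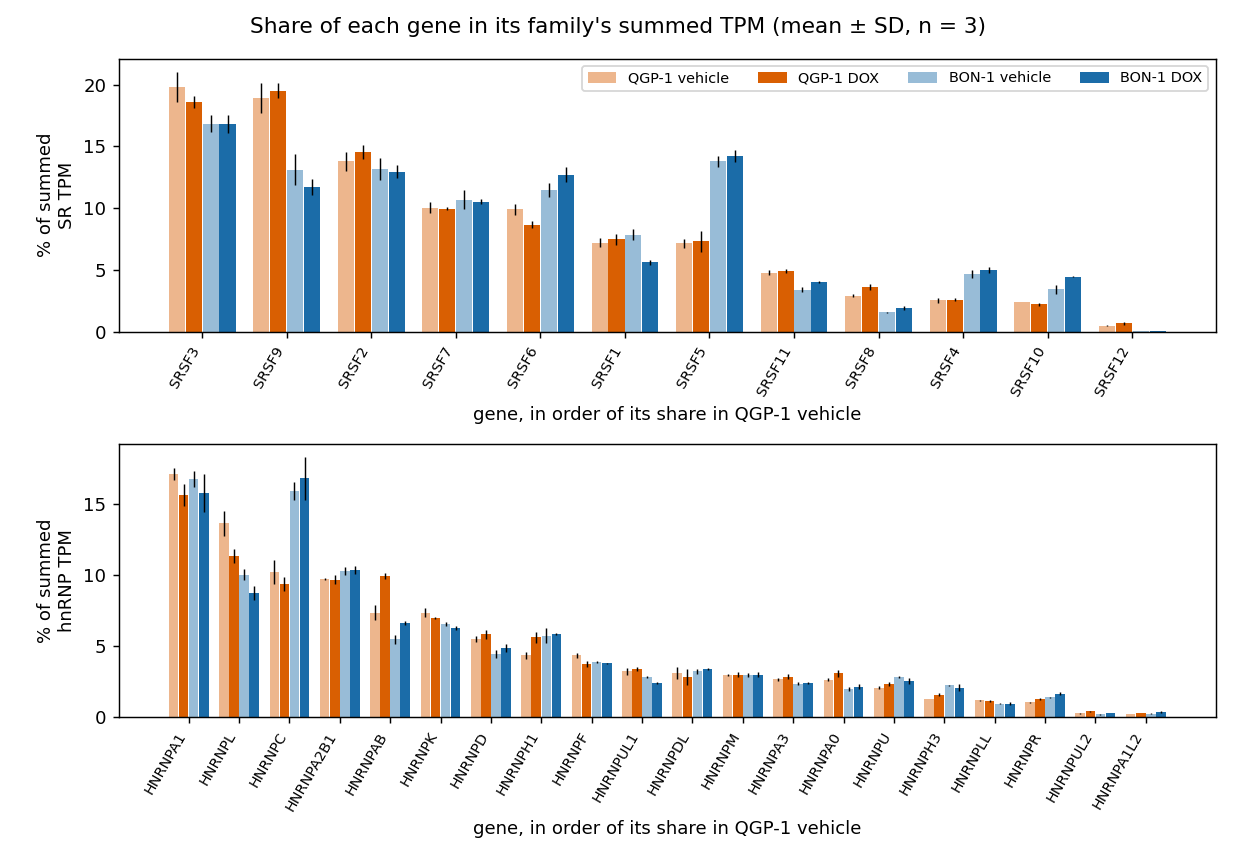
Share of each gene in its family's summed TPM (y axis, %), by gene (x axis) for the 4 groups, with bars for the mean and error bars for the SD of 3 libraries. SRSF3 and HNRNPA1 lead their families with vehicle in both lines, and SRSF5 and HNRNPC take larger shares in BON-1 than in QGP-1 cells.

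The other 5 hnRNP genes could not be tested. HNRNPH2, HNRNPCL3 and HNRNPCL4 had 0 counts in each of the 12 libraries (a count of 0 allows up to 3), HNRNPCL2 had 0 to 4 and HNRNPCL1 0 to 11. HNRNPCL1 to HNRNPCL4 are HNRNPC-like genes clustered on chromosome 1. HNRNPH2 lies at chrX:101408222-101414133 inside the readthrough gene RPL36A-HNRNPH2, whose row is also at 0 in each library, so the zero of HNRNPH2 is a zero of that row of the table and the role of counting over overlapping genes was not tested. HNRNPUL2 likewise overlaps HNRNPUL2-BSCL2, a row at 0 in each library. Pseudogene rows could draw reads from their parents. HNRNPA1P10 had 1.30 to 2.40% of the counts of HNRNPA1 in QGP-1 and 1.42 to 2.26% in BON-1 libraries. HNRNPA1L2 is a retrocopy of HNRNPA1 and SRSF8 one of SRSF2, and how reads with several matches were counted is not given in the sources used here.

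With DOX, most hnRNP genes fell in BON-1 cells and few SR genes were called in either line. In BON-1 cells 14 of the 20 tested hnRNP genes fell and none rose at an adjusted p below 0.05 in edgeR's quasi-likelihood test, where 18.3% of all 14625 genes tested fell and 17% rose. At an unadjusted p below 0.05 the counts were 16 and 1, and DESeq2 gave 14 and 0. Of the 12 SR genes 2 fell and 1 rose there, with 5 and 1 at an unadjusted p below 0.05 and 2 and 1 by DESeq2. In QGP-1 cells 3 hnRNP genes fell and 5 rose, and 1 SR gene fell and 2 rose, against 17.7% lower and 17.3% higher among all 15089 genes tested. An unadjusted p below 0.05 gave 5 and 7 hnRNP genes and 2 and 2 SR genes there. DESeq2 gave 4 and 5 hnRNP genes and 1 and 2 SR genes. At the adjusted threshold, to which these shares of all genes belong, the SR counts in both lines are near or under the background. So is that of hnRNP genes lower in QGP-1. The hnRNP genes higher in QGP-1 are 25% of those tested, and the hnRNP genes lower in BON-1 are 70%. In a bulk measurement fewer cells of a kind and less RNA per cell cannot be told apart.

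The sizes were small. The median log2 fold change of the hnRNP genes, less that of all genes tested, was -0.26 in BON-1 and 0.02 in QGP-1 cells, and that of the SR genes -0.08 and 0.003. Of the 20 hnRNP genes 18 had a negative log2 fold change in BON-1 and 9 in QGP-1 cells. Summed over the family, hnRNP genes went from 7159 ± 262 (SD, n = 3) to 5846 ± 182 CPM in BON-1 and from 6094 ± 72.2 to 5797 ± 228 CPM in QGP-1 cells. The 3 BON-1 vehicle libraries stood at 7443, 6925 and 7108 CPM and the 3 DOX libraries at 5706, 6051 and 5782, without overlap. The SR genes summed to 2462 ± 95.8 and 2232 ± 41.7 CPM in BON-1 and to 2219 ± 54.9 and 2139 ± 33.0 CPM in QGP-1 cells. The BON-1 SR sums did not overlap either, at 2398, 2415 and 2572 CPM with vehicle and 2274.5, 2191 and 2230 with DOX. For such a sum, the smallest two-sided p that exact permutation of 3 and 3 libraries allows is 0.1.

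**Figure D2:**
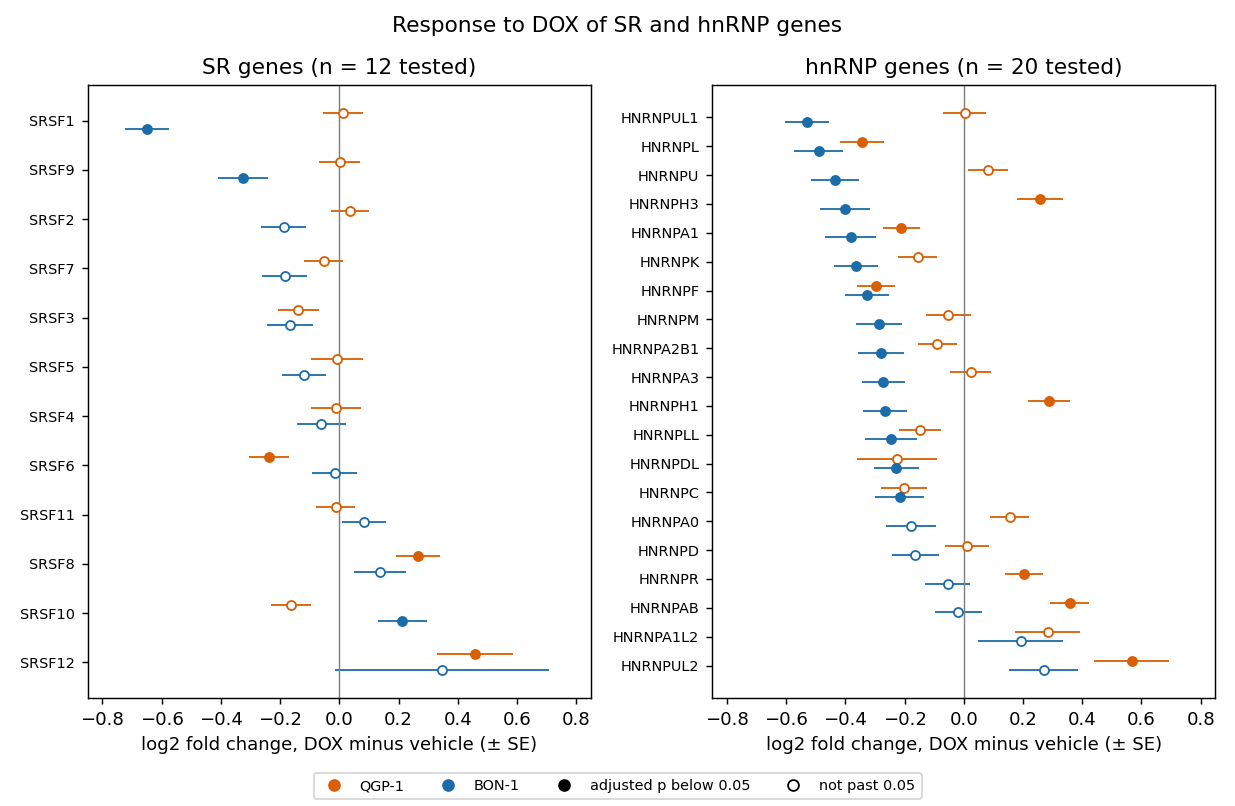
Log2 fold change with DOX (x axis, DOX minus vehicle, points with SE bars) for each of the 12 SR and 20 hnRNP genes tested (y axis), with QGP-1 in orange, BON-1 in blue, and filled points for an adjusted p below 0.05. In BON-1 cells 14 hnRNP points are filled and negative. With the deposited TPM as the scale the QGP-1 points of both families turn positive and no BON-1 point passes. With those TPM values scaled by TMM, 13 hnRNP genes are lower in BON-1.

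The scale matters to these directions. The deposited TPM values put the median gene's log2 fold change at 0.59 in QGP-1 and at -0.31 in BON-1 cells, and on that scale 86.8% of genes rose and 0.862% fell in QGP-1, against 0.243% and 1.92% in BON-1 cells. All 12 SR and 20 hnRNP genes then rose in QGP-1 and none of 11 SR and 20 hnRNP genes was called in BON-1 cells by limma (at an unadjusted p below 0.05, 1 SR and 4 hnRNP genes were lower). Relative to those medians of all genes, the hnRNP median was 0.12 in QGP-1 and -0.31 in BON-1 and the SR median 0.10 and -0.17. With the TPM values scaled by TMM, 13 hnRNP genes fell in BON-1, and 3 fell and 6 rose in QGP-1 cells. The median of all genes was then -0.0016 in QGP-1 and -0.0019 in BON-1 cells. With library size in place of TMM, 16 hnRNP and 5 SR genes fell in BON-1 cells.

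Among hnRNP genes, 3 fell in both lines. HNRNPL (chr19:38836370-38852347) stood at 609.6, 569.8 and 544 CPM with vehicle and at 487, 454 and 417 with DOX in QGP-1 cells, and at 520.5, 457 and 459 against 331, 376 and 315 in BON-1 cells. The groups did not overlap in either line, and the log2 fold changes were -0.34 ± 0.07 (SE, edgeR adjusted p = 0.0024) and -0.49 ± 0.08 (edgeR adjusted p = 2.87e-05). HNRNPF (chr10:43385618-43409186), which binds runs of G, stood at 312, 294 and 297 CPM with vehicle and at 237, 250.2 and 248 with DOX in QGP-1, and at 322, 287 and 306 against 240.5, 251 and 238 in BON-1 cells. Each DOX library lay below each vehicle library of its line, with log2 fold changes of -0.30 ± 0.06 (edgeR adjusted p = 0.00238) and -0.33 ± 0.07 (edgeR adjusted p = 0.00104). HNRNPA1 (chr12:54280726-54287087) stood at 698, 706 and 744 CPM with vehicle and at 618, 604 and 635 with DOX in QGP-1, and at 844, 738.5 and 807 against 608, 680.4 and 545 in BON-1 cells. Its log2 fold changes were -0.21 ± 0.06 (edgeR adjusted p = 0.0173) and -0.38 ± 0.09 (edgeR adjusted p = 0.000906), again without overlap. In QGP-1 cells the call for HNRNPA1 was lost without DOX replicate 2 (edgeR adjusted p = 0.0759), and on the deposited TPM scale the QGP-1 values of all 3 genes turn positive (0.39 for HNRNPL, 0.43 for HNRNPF and 0.53 for HNRNPA1, each under the 0.59 of the median gene).

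A pair of genes moved in opposite directions, HNRNPH1 and HNRNPH3, whose proteins belong with hnRNP F to the G-run binding group. HNRNPH1 (chr5:179614178-179634784) stood at 185, 209 and 196 CPM with vehicle and at 232, 254 and 233 with DOX in QGP-1 cells, and at 276, 304 and 297 against 239.8, 249.9 and 239 in BON-1 cells. The DOX libraries of QGP-1 were all above and those of BON-1 all below their vehicle libraries, with log2 fold changes of 0.29 ± 0.07 (edgeR adjusted p = 0.00542) and -0.27 ± 0.07 (edgeR adjusted p = 0.00571). HNRNPH3 (chr10:68331693-68343196) stood at 73.7, 72.8 and 72.7 CPM with vehicle and at 94.8, 87.0 and 80.0 with DOX in QGP-1, and at 152, 142 and 149 against 95.2, 118 and 122 in BON-1 cells. Its log2 fold changes were 0.26 ± 0.08 (edgeR adjusted p = 0.0189) and -0.40 ± 0.09 (edgeR adjusted p = 0.000495), without overlap. The rise of HNRNPH3 in QGP-1 cells lost its call without vehicle replicate 1, vehicle replicate 2 or DOX replicate 1 (edgeR adjusted p 0.0514 to 0.0665), while its fall in BON-1 cells was called in each of the 6 fits that leave out a library. HNRNPF, the third member of this group with counts, fell in both lines, so the group did not share a direction in QGP-1 cells.

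The other 9 hnRNP genes that fell in BON-1 cells were not called in QGP-1 cells, which does not show that they were unchanged there. HNRNPUL1 (chr19:41262557-41307787) is related to HNRNPU and had the largest fall of the family, from 322, 295 and 296 to 209, 221 and 202 CPM, a log2 fold change of -0.53 ± 0.08 (SE, edgeR adjusted p = 3.04e-06). In QGP-1 cells it stood at 309.9, 324 and 283 CPM with vehicle and at 318, 317 and 285 with DOX, with a 95% interval of the log2 fold change from -0.15 to 0.16. HNRNPU (chr1:244850297-244864543), a scaffold attachment factor that binds chromatin and RNA, went from 494, 461 and 449.6 to 348, 381 and 310.5 CPM in BON-1 cells, a log2 fold change of -0.43 ± 0.08 (edgeR adjusted p = 0.000115). The QGP-1 values of HNRNPU were 309.5, 317 and 291 against 330.1, 341 and 301 CPM and overlapped. HNRNPA3 (chr2:177212794-177223959), close in sequence to HNRNPA1 and HNRNPA2B1, went from 334, 322 and 340.1 to 269, 278 and 278 CPM in BON-1 cells, a log2 fold change of -0.27 ± 0.07 (edgeR adjusted p = 0.00436), and from 320.0, 344 and 324 to 336, 353 and 314 CPM in QGP-1 cells, with overlap.

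HNRNPK, a binder of C-rich sequence, fell by 0.36 ± 0.07 on the log2 scale in BON-1 cells (edgeR adjusted p = 0.000346), and the splicing repressors HNRNPM and HNRNPA2B1 fell by 0.29 ± 0.08 and 0.28 ± 0.08 (edgeR adjusted p = 0.00552 and 0.0057). HNRNPLL, known for the switch of PTPRC isoforms in T cells, HNRNPDL and HNRNPC had the smallest falls, 0.24 ± 0.09, 0.23 ± 0.08 and 0.22 ± 0.08 (edgeR adjusted p = 0.0302, 0.0226 and 0.0381). These 3 calls depend on single libraries. HNRNPLL was called in 1 of the 6 fits that leave out a library, losing its call without any vehicle replicate, DOX replicate 1 or DOX replicate 2 (edgeR adjusted p 0.0548 to 0.107). HNRNPC was called in 2, losing its call without vehicle replicate 1, vehicle replicate 3, DOX replicate 1 or DOX replicate 2 (edgeR adjusted p 0.0503 to 0.133), and HNRNPDL in 4, losing it without vehicle replicate 1 or vehicle replicate 3 (edgeR adjusted p 0.0503 to 0.109). The other 11 of the 14 falls were called in each of these 6 fits. In QGP-1 cells the uncalled log2 fold changes of HNRNPDL and HNRNPC were -0.23 ± 0.14 and -0.20 ± 0.08, near their BON-1 values (edgeR adjusted p = 0.22 and 0.0588). Those of HNRNPK and HNRNPLL were -0.16 ± 0.06 and -0.15 ± 0.07 in QGP-1, and those of HNRNPA2B1 and HNRNPM -0.09 ± 0.07 and -0.05 ± 0.08.

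The neuroendocrine markers changed in both directions in BON-1 cells. The 12 of them summed to 11213 to 14608 CPM with vehicle and to 8527 to 9147 with DOX, with 5 lower and 1 higher of 11 tested (18.3% lower and 17% higher among all genes). CHGA (chromogranin A) went from 8104 ± 1428 to 2936 ± 215 CPM (SD, n = 3), and without it the other 11 summed to 4677 to 5280 CPM with vehicle and to a higher 5822 to 6017 with DOX. SCG2 (secretogranin II), the 1 marker called higher, rose from 2698 ± 122 to 3686 ± 5.12 CPM, a log2 fold change of 0.45 ± 0.08 (SE, edgeR adjusted p = 0.000126). Beside CHGA and SSTR2, the markers called lower were SYP, NKX2-2 and PCSK1. Their log2 fold changes were -0.34, -0.27 and -0.23 (edgeR adjusted p = 0.0192, 0.0241 and 0.0231). In QGP-1 cells the 12 markers summed to 4845 to 5518 CPM with vehicle and 5384 to 5833 with DOX. Of 11 tested there, 4 were higher and 0 lower (17.3% higher and 17.7% lower among all genes). SSTR2, at a low level, was called in opposite directions. It went from 1.37 ± 0.354 to 6.42 ± 1.63 CPM in QGP-1 and from 5.38 ± 0.316 to 3.16 ± 1.30 CPM in BON-1 cells (edgeR adjusted p = 1.66e-05 and 0.0263). Of the 4 acinar markers only PRSS1 was above 1 CPM on average, and it fell in both lines, from 121 ± 35.2 to 34.0 ± 5.63 CPM in QGP-1 and from 38.6 ± 5.27 to 23.0 ± 3.74 CPM in BON-1 cells. The part of these changes in the hnRNP result was not tested.

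In QGP-1 cells 3 further hnRNP genes rose that were not called in BON-1 cells. HNRNPUL2 (chr11:62712630-62727457) stood at 27.0, 32.9 and 21.8 CPM with vehicle and at 40.7, 43.4 and 36.8 with DOX, the largest rise of the family at 0.57 ± 0.13 (SE, edgeR adjusted p = 0.00326). Its BON-1 libraries stood at 28.4, 25.1 and 20.8 against 28.6, 31.2 and 30.2 CPM, also without overlap but not past the threshold (0.27 ± 0.12, edgeR adjusted p = 0.0694; without vehicle replicate 1, 0.38 and 0.0216). HNRNPAB (chr5:178204533-178211163) stood at 270.1, 249.6 and 239 CPM with vehicle and at 331, 319 and 321 with DOX, a rise of 0.36 ± 0.07 (edgeR adjusted p = 0.000961). In BON-1 cells HNRNPAB overlapped between groups, at 236, 204 and 200.2 against 202, 223 and 207 CPM. HNRNPR, close in sequence to SYNCRIP, rose by 0.20 ± 0.06 (edgeR adjusted p = 0.0225), and this call was lost without vehicle replicate 1, DOX replicate 2 or DOX replicate 3 (edgeR adjusted p 0.0566 to 0.0902). HNRNPD, a regulator of AU-rich mRNA decay, HNRNPA0 and HNRNPA1L2 passed the threshold in neither line (log2 fold changes 0.01, 0.15 and 0.28 for QGP-1 and -0.16, -0.18 and 0.19 for BON-1).

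**Figure D3:**
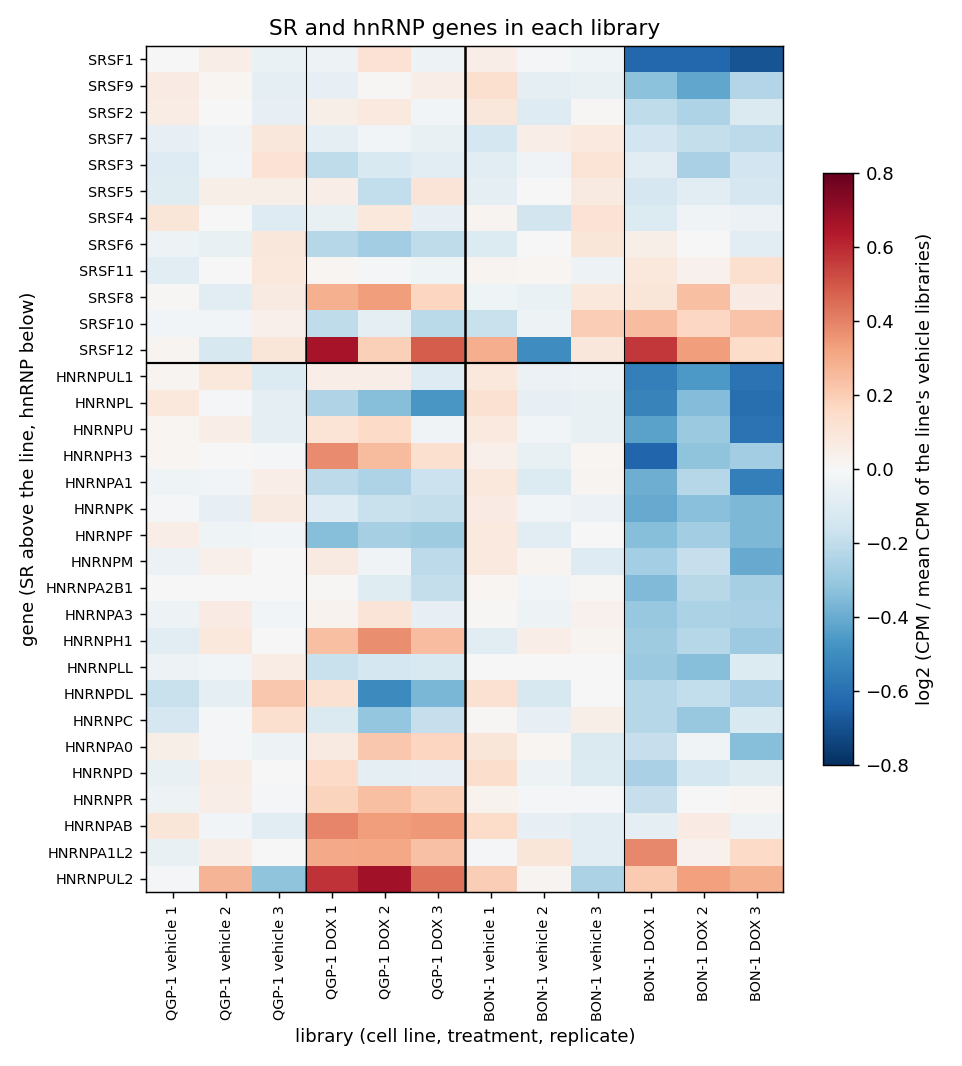
Level of each tested gene (y axis) in each of the 12 libraries (x axis), as log2 of its CPM over the mean CPM of the vehicle libraries of its line, from blue (lower) to red (higher). The blue block of hnRNP genes in the 3 BON-1 DOX libraries has no counterpart of its size in QGP-1, where on this scale HNRNPL, HNRNPF and HNRNPA1 are lower (they turn on the deposited TPM scale) and HNRNPH1, HNRNPH3 and HNRNPAB higher in each DOX library.

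Of the SR genes SRSF1 changed most. SRSF1 (chr17:57989038-58007246), an enhancer-binding SR protein that is oncogenic when overexpressed, stood at 368, 351 and 346 CPM with vehicle and at 230.0, 229.6 and 220.0 with DOX in BON-1 cells. The groups were far apart, and the log2 fold change was -0.65 ± 0.07 (SE, edgeR adjusted p = 7.46e-08), which is 0.638 of the vehicle level and the largest fall among all 32 tested members. In QGP-1 cells SRSF1 stood at 296, 309 and 286 CPM with vehicle and at 289, 321 and 288 with DOX, with a 95% interval of the log2 fold change from -0.13 to 0.16. SRSF9 (chr12:120461672-120469748), an SR protein with a short arginine and serine rich domain, stood at 106, 92.0 and 92.7 CPM with vehicle and at 77.0, 72.5 and 82.3 with DOX in BON-1 cells, a log2 fold change of -0.33 ± 0.08 (edgeR adjusted p = 0.00314). In QGP-1 cells it was at 133, 128 and 120.1 against 121, 128 and 132 CPM, with overlap. Both falls in BON-1 were called in each of the 6 fits that leave out a library.

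SRSF10 was the SR gene called higher in BON-1 cells. SRSF10 (chr1:23964347-23980327), whose protein represses splicing when it is dephosphorylated, stood at 203, 223 and 264 CPM with vehicle and at 273, 258 and 269 with DOX in BON-1 cells. The groups overlapped, the log2 fold change was 0.21 ± 0.08 (SE, edgeR adjusted p = 0.0486), and the call was lost without vehicle replicate 1, vehicle replicate 2 or any DOX replicate (edgeR adjusted p 0.0775 to 0.258). On the deposited TPM scale its BON-1 value was -0.14, above the -0.31 of the median gene. In QGP-1 cells SRSF10 stood at 145, 145 and 151 CPM with vehicle and at 128, 139.8 and 126 with DOX, a log2 fold change of -0.16 ± 0.07 that did not pass the threshold (edgeR adjusted p = 0.0768).

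In QGP-1 cells the called SR genes were others. SRSF6 (chr20:43457896-43464243) stood at 276, 272 and 302 CPM with vehicle and at 242, 233 and 246 with DOX, a log2 fold change of -0.24 ± 0.07 (SE, edgeR adjusted p = 0.0129), and was at 335, 363 and 387 against 373, 360.3 and 339 CPM in BON-1 cells. SRSF8 (chr11:95066877-95071225) stood at 91.9, 86.1 and 95.9 CPM with vehicle and at 111, 115 and 103 with DOX, a log2 fold change of 0.27 ± 0.07 (edgeR adjusted p = 0.012), and was at 52.5, 51.8 and 57.0 against 57.6, 63.5 and 56.2 CPM in BON-1 cells. SRSF12 (chr6:89095959-89118071), a low-abundance relative of SRSF10, stood at 12.1, 11.0 and 12.8 CPM with vehicle and at 18.9, 13.7 and 16.8 with DOX, a log2 fold change of 0.46 ± 0.13 (edgeR adjusted p = 0.0128). In BON-1 cells SRSF12 had only 1.92, 1.11 and 1.67 against 2.31, 1.98 and 1.73 CPM, and the 95% interval of its change, from -0.39 to 1.09, includes the QGP-1 value. Each of these 3 calls depends on a library. That of SRSF6 was lost without DOX replicate 2 (edgeR adjusted p = 0.0617), that of SRSF12 without vehicle replicate 2 (edgeR adjusted p = 0.0679), and that of SRSF8 without either of them (edgeR adjusted p 0.0578 to 0.0716). On the deposited TPM scale the value of SRSF6 was 0.49, under the 0.59 of the median gene.

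The other 6 SR genes passed the threshold in neither line. SRSF3 stood at -0.14 in QGP-1 and -0.17 in BON-1 cells (log2 fold changes), and SRSF2, whose protein marks nuclear speckles, 0.04 and -0.19. SRSF7, a relative of SRSF3 with a zinc knuckle, had -0.05 and -0.18, SRSF5 -0.01 and -0.12, SRSF4 -0.01 and -0.06, and SRSF11 -0.01 and 0.08. The BON-1 95% intervals of SRSF2, SRSF7 and SRSF3 reach to -0.34, -0.34 and -0.33, so falls of the size seen in the hnRNP genes are within them.

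The response to DOX was compared between the lines with 1 edgeR fit of all 12 libraries that holds a term for line by DOX. The difference passed the threshold for 8 of the 32 tested members, 6 hnRNP and 2 SR genes, against 16.7% of all 16598 genes. All 6 hnRNP differences were negative (BON-1 minus QGP-1), and 19 of the 20 hnRNP differences were below 0, with a median of -0.21 where the median of all genes was -0.002. For HNRNPH3 the difference was -0.65 ± 0.13 (SE, edgeR adjusted p = 0.00085), for HNRNPH1 -0.54 ± 0.10 (edgeR adjusted p = 0.000545), for HNRNPUL1 -0.52 ± 0.11 (edgeR adjusted p = 0.00133) and for HNRNPU -0.51 ± 0.11 (edgeR adjusted p = 0.00278). HNRNPAB differed by -0.37 ± 0.11 (edgeR adjusted p = 0.0246) and HNRNPA3 by -0.28 ± 0.10, just past the threshold (edgeR adjusted p = 0.0499).

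Of the SR genes SRSF1 differed by -0.65 ± 0.10 (SE, edgeR adjusted p = 6.56e-05) and SRSF10 by 0.39 ± 0.11 (edgeR adjusted p = 0.0202), in opposite directions. SRSF9 and HNRNPA0 missed the threshold (-0.32 ± 0.11 for each, edgeR adjusted p = 0.057 and 0.0556). The hnRNP genes that fell in both lines did not differ past the threshold (-0.14 ± 0.12 for HNRNPL, -0.02 ± 0.10 for HNRNPF and -0.16 ± 0.11 for HNRNPA1), and neither did HNRNPK, HNRNPM or HNRNPA2B1, so a fall called in BON-1 alone is for most genes not a shown difference between the lines. SRSF1, HNRNPH3, HNRNPH1, HNRNPUL1 and HNRNPU were called in each of 12 fits that leave out a library. HNRNPAB lost its call without QGP-1 vehicle replicate 2 or QGP-1 vehicle replicate 3 (edgeR adjusted p 0.0542 to 0.0623). SRSF10 lost it without QGP-1 DOX replicate 1, BON-1 vehicle replicates 1 or 2 or any BON-1 DOX replicate (edgeR adjusted p 0.0528 to 0.0977). HNRNPA3 lost it without any QGP-1 vehicle replicate, QGP-1 DOX replicate 2, BON-1 vehicle replicate 3 or BON-1 DOX replicate 1 (edgeR adjusted p 0.0529 to 0.144).

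**Figure D4:**
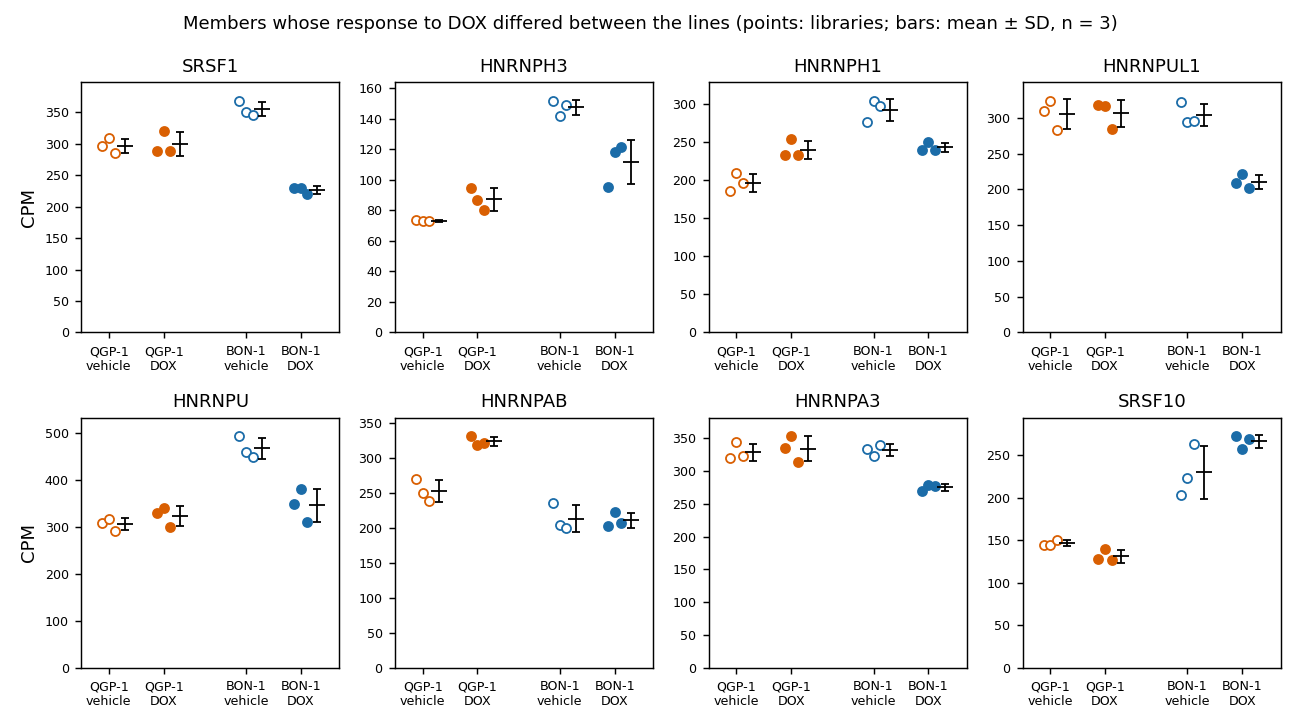
CPM (y axis, from 0) in each library of the 4 groups (x axis) for the 8 genes whose response differed between the lines, with open points for vehicle, filled points for DOX and bars for the mean ± SD of 3 libraries. SRSF1, HNRNPUL1, HNRNPU and HNRNPA3 are lower with DOX in BON-1 and overlap in QGP-1, HNRNPH1 and HNRNPH3 go opposite ways, HNRNPAB is higher with DOX in QGP-1 and overlaps in BON-1, and the BON-1 groups of SRSF10 overlap.

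The genes that act with the 2 families were followed in 8 further lists, whose counts stand beside 17.7% lower and 17.3% higher among all genes tested in QGP-1 and 18.3% lower and 17% higher in BON-1 cells. Other hnRNP proteins under different symbols had 4 lower of 11 tested in BON-1 and 2 of each among 10 in QGP-1 cells. PTBP1, the polypyrimidine tract binding repressor, fell by 0.39 ± 0.08 on the log2 scale in BON-1 cells (edgeR adjusted p = 0.000416), and no member of this list was called in both lines. SR-related proteins had 2 lower of 9 in BON-1 (TRA2A and RNPS1) and 2 higher of 9 in QGP-1 cells (SRRM2 and SON), shares near those of all genes. The kinases that phosphorylate SR proteins had 2 higher of 8 in QGP-1, and 1 higher and 1 lower of 8 in BON-1 cells. The BON-1 shares are under those of all genes, and the QGP-1 share, which rests on 2 genes, is above. SRPK2, an SR protein kinase, rose in both lines, from 147 ± 5.88 to 192 ± 9.48 CPM (SD, n = 3) in QGP-1 and from 68.3 ± 4.45 to 92.1 ± 5.98 CPM in BON-1 cells, with log2 fold changes of 0.39 ± 0.07 (SE, edgeR adjusted p = 0.000557) and 0.43 ± 0.08 (edgeR adjusted p = 0.000174).

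Of the 2 nuclear import carriers, TNPO3 imports SR proteins and TNPO1 imports hnRNP A1 and its relatives. TNPO1 rose in both lines, by a log2 fold change of 0.48 ± 0.07 in QGP-1 (SE, edgeR adjusted p = 0.000116) and 0.26 ± 0.08 in BON-1 cells (edgeR adjusted p = 0.00891). TNPO3 rose in BON-1 cells (0.30 ± 0.08, edgeR adjusted p = 0.00327) and was not called in QGP-1 cells (0.17 ± 0.08, edgeR adjusted p = 0.0923). Its response did not differ between the lines past the threshold (edgeR adjusted p = 0.431). Nonsense-mediated decay factors, which degrade the unproductive SR and hnRNP transcripts, had 5 higher and 1 lower of 10 in QGP-1, and 2 lower of 10 in BON-1 cells, against 17.3% higher and 17.7% lower among all genes in QGP-1 and 18.3% lower in BON-1. The lower counts are thus near or under the background. SMG9 fell in both (-0.38 ± 0.13, edgeR adjusted p = 0.0324, and -0.29 ± 0.11, edgeR adjusted p = 0.047).

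Core spliceosome genes were followed in 3 of the lists, against the same 17.7% lower in QGP-1 and 18.3% lower in BON-1 among all genes. Of 19 Sm, LSm and U1 and U2 snRNP genes 9 fell and 1 rose in QGP-1, and 6 fell and 3 rose in BON-1 cells. SNRPB, which codes for the Sm proteins B and B', had the largest fall called in both lines, from 114 ± 3.36 to 62.3 ± 0.747 CPM (SD, n = 3) in QGP-1 and from 154 ± 13.6 to 81.7 ± 22.0 CPM in BON-1 cells, with log2 fold changes of -0.87 ± 0.07 (SE, edgeR adjusted p = 8.74e-07) and -0.91 ± 0.12 (edgeR adjusted p = 6.9e-07). SNRPD2 fell by 0.84 ± 0.15 and 0.49 ± 0.11 on the log2 scale (edgeR adjusted p = 0.000671 and 0.000938) and SNRPD1 by 0.29 ± 0.08 and 0.31 ± 0.09 (edgeR adjusted p = 0.014 and 0.00824). Genes for recognition of the branch point and the 3′ splice site had 3 lower of 12 in QGP-1 and 6 lower of 12 in BON-1 cells. SF3A2 (-0.45 and -0.62) and SF3B3 (-0.21 and -0.43) fell in both. U2AF1 was at 0 in each library, as was the row of its copy U2AF1L5. Of 10 tri-snRNP genes 1 fell in QGP-1 and 2 in BON-1 cells, near or under the background, with SNRNP40 in both (-0.26 ± 0.09, edgeR adjusted p = 0.0385, and -0.35 ± 0.09, edgeR adjusted p = 0.00468).

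**Figure D5:**
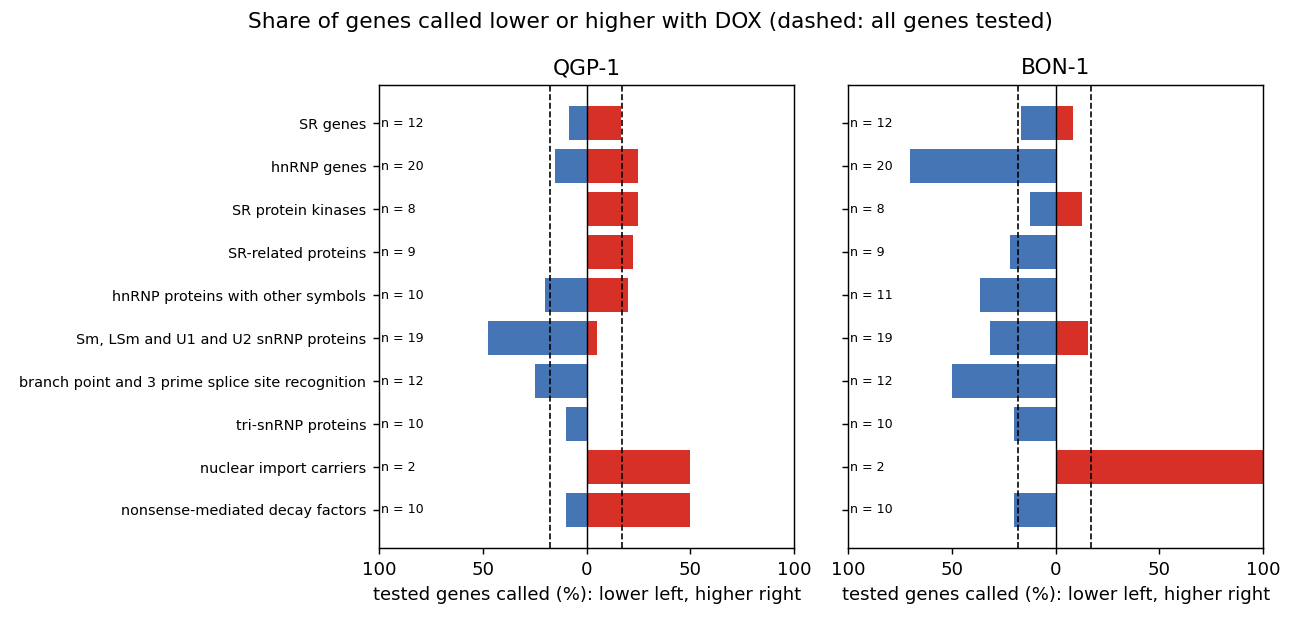
Share of tested genes (x axis, %) called lower (blue, to the left) or higher (red, to the right) with DOX in each family and list (y axis), for QGP-1 and BON-1 cells, with the number tested beside each bar and dashed lines at the share among all genes tested. The hnRNP genes in BON-1 reach 70% lower where the dashed line is at 18.3%, and on the deposited TPM scale none of them is called. With those TPM values scaled by TMM, 13 of 20 are called lower.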

How the data were processed

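The 12 libraries were grouped by cell line and treatment as given in the labels. Per the study's methods, RNA of cells cultured in triplicate was made into stranded mRNA libraries and aligned with STAR to GRCh38; the version, the counting program, its use of strand and its treatment of reads with several matches are not given in the sources used here. The authors deposited, for each line, raw read counts per gene and TPM values. Counts were modelled in edgeR 4.0.16 (R 4.3.3) after filterByExpr and TMM scaling, by quasi-likelihood fits of the 3 DOX and 3 vehicle libraries of a line, and Benjamini-Hochberg adjustment over all genes tested, with calls at an adjusted p below 0.05. DESeq2, the study's tool, was run as an alternative. The SE is the log2 fold change divided by the square root of F. The interaction was fitted on all 12 libraries over 16598 genes. The members and lists were chosen with earlier results of these data known. Per-library values were given for genes called in both lines, for up to 3 rises and 3 falls per line and family, and for genes called in the interaction; other listed genes were named where called in both lines or, chosen after their values were seen, as PTBP1, TRA2A, RNPS1, SRRM2, SON, TNPO3, CHGA, SCG2 and PRSS1. Deposited TPM values served for shares within a family and, on the log2(TPM + 1) scale where the mean TPM was 1 or more, for an alternative test in limma 3.58.1. Other alternatives were DESeq2 (1.42.0), library size, no low-count filter, at least 10 counts in every library, a replicate block, both lines in 1 fit, and leaving out each library. The code was tested on simulated counts in which 200 genes changed 2-fold, which is larger than the change of any tested member. Replicate libraries differed by more than sampling noise (chi-square per gene 5.72 to 28.2), and the tables held 0 sample columns beyond those used. The p-values measure the spread among these triplicate cultures. Promoter windows and gene positions are from RefSeq on GRCh38.p14, and HNRNPA1, HNRNPCL3 and SRSF2 had no window in that table. Figures were drawn with matplotlib 3.10.9.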

Additional observations from a re-analysis of the deposited data

Results flagged for a closer look

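The response to DOX differed between the lines, by the interaction test in edgeR, for 8 genes, each given as the log2 fold change in BON-1 minus that in QGP-1 cells. SRSF1 had -0.65, HNRNPH3 -0.65, HNRNPH1 -0.54, HNRNPUL1 -0.52, HNRNPU -0.51, HNRNPAB -0.37, HNRNPA3 -0.28 and SRSF10 0.39. With DESeq2 all 8 had an adjusted p below 0.05 (the highest, for SRSF10, was 0.0115). Groups of 3 libraries are too small for a test of single outlying libraries, so none was made.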

How the results depend on the processing

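Of the 446 recomputed log2 fold changes of the 16 genes with values per library, 390 kept their direction and side of the threshold, 27 lost and 6 gained a call, 17 changed sign without a call in either fit (13 of them with a library left out, 2 on the deposited and 2 on the TMM-scaled TPM), and 6 turned with a call in 1 of the fits or both. These 6 turned on the deposited TPM scale, in QGP-1 cells SRSF6 (0.49), SRSF10 (0.51), HNRNPA1 (0.53), HNRNPF (0.43) and HNRNPL (0.39), and in BON-1 cells SRSF10 (-0.14). On that scale the QGP-1 counts were 0 lower and 12 higher for SR and 0 lower and 20 higher for hnRNP genes, with medians less that of all genes of 0.10 and 0.12, and in BON-1 cells all counts were 0, with medians of -0.17 and -0.31. With TPM scaled by TMM, 13 hnRNP genes were lower in BON-1, and in QGP-1 3 were lower and 6 higher. The SR count higher in BON-1 was then 0. Without the low-count filter 5 hnRNP genes were lower in QGP-1, and in BON-1 4 SR genes were lower and 0 higher. The minimum of 10 counts gave the same BON-1 SR counts, with 3 hnRNP genes lower in QGP-1. By library size 5 SR genes were lower and 0 higher in BON-1. Leaving out a library gave in QGP-1 0 to 1 SR genes lower and 0 to 2 higher, and 2 to 5 hnRNP genes lower and 3 to 5 higher, with medians of -0.01 to 0.01 and -0.03 to 0.07. It gave in BON-1 2 to 3 SR genes lower and 0 to 1 higher, and 11 to 15 hnRNP genes lower and 0 to 1 higher. The 11 came without vehicle replicate 1 or vehicle replicate 3. The hnRNP gene called higher was HNRNPUL2, without vehicle replicate 1. The SR and hnRNP medians were -0.12 to -0.031 and -0.28 to -0.23, and 6 to 10 genes differed between lines. Both lines in 1 fit gave 12 hnRNP genes lower in BON-1. The SR count lower in QGP-1 was 0 without DOX replicate 2, the SR count higher was 0 when vehicle replicate 2 was left out and 1 when DOX replicate 2 was, the hnRNP count lower 5 without DOX replicate 1 and the hnRNP count higher 3 without vehicle replicate 1. The SR median in BON-1 was -0.031 without vehicle replicate 3. The causes were not tested. DESeq2 called 11 genes as differing between lines and library size 12, against 8. By library size SRSF10 lost its call (0.31, edgeR adjusted p = 0.0686).

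Deviations of same-numbered vehicle and DOX libraries had an r of -0.10, 0.16 and 0.12 in QGP-1 and -0.07, -0.04 and 0.11 in BON-1 cells. The same number was the best match for QGP-1 replicate 2 and BON-1 replicate 3 and not for the others. With 3 libraries per group these values cannot settle whether the numbers pair the samples. The replicate block gave 13 lower hnRNP genes in BON-1 in place of 14, left the other counts as they were, and moved HNRNPA3 out of the genes differing between lines (edgeR adjusted p = 0.0672), with 8 called. HNRNPCL1 to HNRNPCL4 and HNRNPH2 had too few counts to be tested. HNRNPH2 was at 0 in each library, as was the readthrough row that overlaps it. The role of counting over overlapping genes in this zero was not tested.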
